A study of Mus musculus with 10 samples.

Results

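The subject is the difference between 2 cell types in their response to loss of LSD1: the knockout effect in marginal zone B cells (MZB) minus the knockout effect in follicular B cells (FoB), for each of the 9690 genes of the deposited table and over all 10 of its libraries. No gene was selected by its values. A positive difference, called the interaction below, means that the knockout library level relative to wild type was higher in MZB than in FoB. The cells came from spleens of female C57BL/6J mice and were not stimulated. There were 3 wild-type and 2 LSD1 knockout MZB libraries, and 2 wild-type and 3 LSD1 knockout FoB libraries. MZB were sorted as B220+ CD93- GL7- CD23- CD21hi CD1d+ cells and FoB as CD23+ CD21mid CD1d- cells of the same B220+ CD93- GL7- gate, and both sorts left out Thy1.1+, F4/80+ and CD11b+ cells. The labels do not state what drives the deletion, the age of the mice, the deleted exons or whether each library came from its own animal. P-values therefore measure only how far these libraries spread, and that spread may be technical.

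LSD1, encoded by Kdm1a, removes methyl groups from lysine 4 of histone H3 and acts in complexes with CoREST and histone deacetylases that transcription factors such as GFI1 and BCL6 bring to their targets. Marginal zone B cells line the marginal sinus of the spleen, respond quickly to blood-borne antigen, depend on Notch2 and carry high CD21 and CD1d. Follicular B cells recirculate through spleen and lymph nodes, carry CD23, and depend on KLF2 for homing and quiescence.

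Each library held between 4161051 reads (FoB knockout library 1) and 6711847 reads (MZB knockout library 2), and the median gene had 184 to 319 reads. Libraries of a group correlated at r = 0.984 to 0.990 across genes. The FoB knockout libraries 2 and 3 differed most among replicates, with a chi-square per gene of 7.17, against 1.9 to 5.14 for the other pairs. Values are given as mRNA per cell, the deposited unit, and after rescaling each library to a common level, which takes out differences in total mRNA between libraries. Rescaling factors ran from 0.625 to 1.76. The sort labels were met by the genes of the sorting markers in wild-type cells: the rescaled level of Fcer2a (CD23) averaged 10.05 in MZB and 130.5 in FoB, that of Cr2 (CD21) 206.5 and 53.9, and that of Cd1d1 47.8 and 5.71.

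Kdm1a (Entrez 99982, chromosome 4, 136550533-136602787, GRCm38.p6) checks the knockout labels. Its rescaled level was 5.64, 5.69 and 5.83 in wild-type MZB and 3.48 and 3.37 in knockout MZB. It was 7.002 and 6.84 in wild-type FoB and 3.01, 3.09 and 3.09 in knockout FoB. No knockout library overlapped the wild-type libraries of its cell type, and the knockout level was 60.0% of wild type in MZB and 44.3% in FoB. The knockout effect on the log2 scale was -0.69 ± 0.06 (SE; limma, adjusted p = 0.000463) in MZB and -1.10 ± 0.06 (limma, adjusted p = 2.5e-05) in FoB. Their difference, 0.41 ± 0.09, did not pass the threshold (limma, adjusted p = 0.0727, range 0.0401 to 0.273 over 21 alternatives). It passed with library weights, with voom and without FoB knockout library 2, at values from 0.42 to 0.44. Reads of the deleted exons could not be separated from the rest of the gene, and Luzp1 overlaps it. Whether the remaining Kdm1a RNA, at a mean of 3.43 in MZB and 3.06 in FoB, bears on any gene below was not tested.

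Total mRNA per cell is the first readout in which the cell types can be compared. The sum over genes was 74815, 99800 and 92253 in wild-type MZB and 105590 and 121071 in knockout MZB. It was 56438 and 45237 in wild-type FoB and 48149, 55704 and 43562 in knockout FoB. The knockout libraries lay above wild type in MZB, without overlap, and overlapped wild type in FoB. Group means were 88956 ± 12815 (SD, n = 3) against 113331 ± 10946 (n = 2) in MZB, a ratio of 1.27, and 50837 ± 7920 (n = 2) against 49138 ± 6131 (n = 3) in FoB, a ratio of 0.967. The interaction was 0.40 on the log2 scale, and an exact two-sided permutation test over 100 arrangements gave p = 0.15, where 0.01 is the smallest it can give. Without FoB wild-type library 1 it was 0.23 (exact permutation p = 0.45). The median interaction of the 9690 genes was 0.39 per cell and 0.04 after rescaling. A difference in total mRNA enters each gene's per-cell value, and limma counts it anew for each gene, which makes adjusted p on the per-cell scale too small where that difference is noise.

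Most genes whose response differed between the 2 cell types had a called knockout effect in MZB alone. Per cell, the interaction passed the threshold (limma, adjusted p under 0.05) for 227 genes, or 2.34% of those tested, of which 196 (2.02%) were higher and 31 (0.32%) lower. After rescaling it passed for 30 genes (0.31%), 16 higher (0.165%) and 14 lower (0.144%). The share of calls that were higher was 86.3% per cell and 53.3% after rescaling, and 14 higher and 5 lower genes were called on both scales. At an unadjusted p under 0.05, 26.4% of all genes were higher and 1.1% lower per cell, and 11.2% higher and 11.6% lower after rescaling. With voom, 195 of the 9690 genes were called higher and 408 lower. Counts of both kinds in the lists below are to be read against these values. Of the 16 higher genes after rescaling, 13 were called in MZB alone and 3, Ahnak, Mapk11 and Pold1, were called in both cell types in opposite directions. Of the 14 lower genes, 11 were called in MZB alone and 3, Klhl9, Cyp39a1 and Erlec1, in neither.

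**Figure D1:**
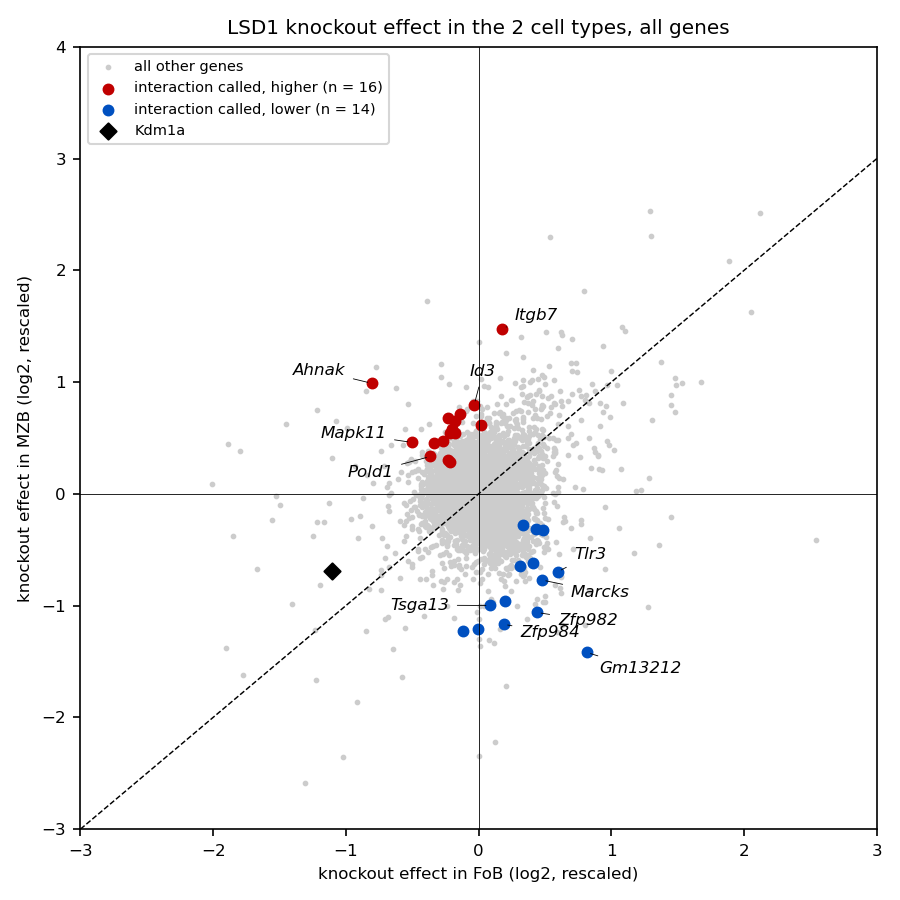
Knockout effect in FoB (x axis) and in MZB (y axis), both as rescaled log2 differences, for all 9690 genes; the dashed line marks equal effects. The 16 genes with a higher interaction (red) lie above the line and the 14 with a lower one (blue) below it, Itgb7 at 1.48 in MZB and 0.18 in FoB, and Gm13212 at -1.42 in MZB and 0.81 in FoB.

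Libraries of the 30 genes did not overlap between knockout and wild type in MZB for 16 of 16 higher and 14 of 14 lower genes, where 45.6% of all genes show no overlap. In FoB they did not overlap for 13 of 16 and 9 of 14, where 31.2% of all genes show none. The 30 genes were called on these same libraries, so their separation follows in part from that choice and is no separate evidence. The number of rescaled calls moved with single libraries: it was 349 without FoB knockout library 2, 58 without FoB knockout library 3 and 46 without FoB knockout library 1. It was 18 without MZB wild-type library 2, 8 and 2 without MZB knockout library 1 or 2, 1 without MZB wild-type library 1, and 2 without either FoB wild-type library. Where a MZB knockout or FoB wild-type library was left out, the library that stayed alone was assumed to vary like the other groups. Per cell, the count was 744 without MZB wild-type library 2, 637 without FoB knockout library 2, 143 without MZB wild-type library 1, 88 without MZB knockout library 2 and 59 without FoB wild-type library 1. Itgb7 passed in all 10 rescaled fits with a library left out, Ahnak in 7, and the other 28 genes in 1 to 6. Grip2 and Klhl9 were called in 1 of these fits.

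**Figure D2:**
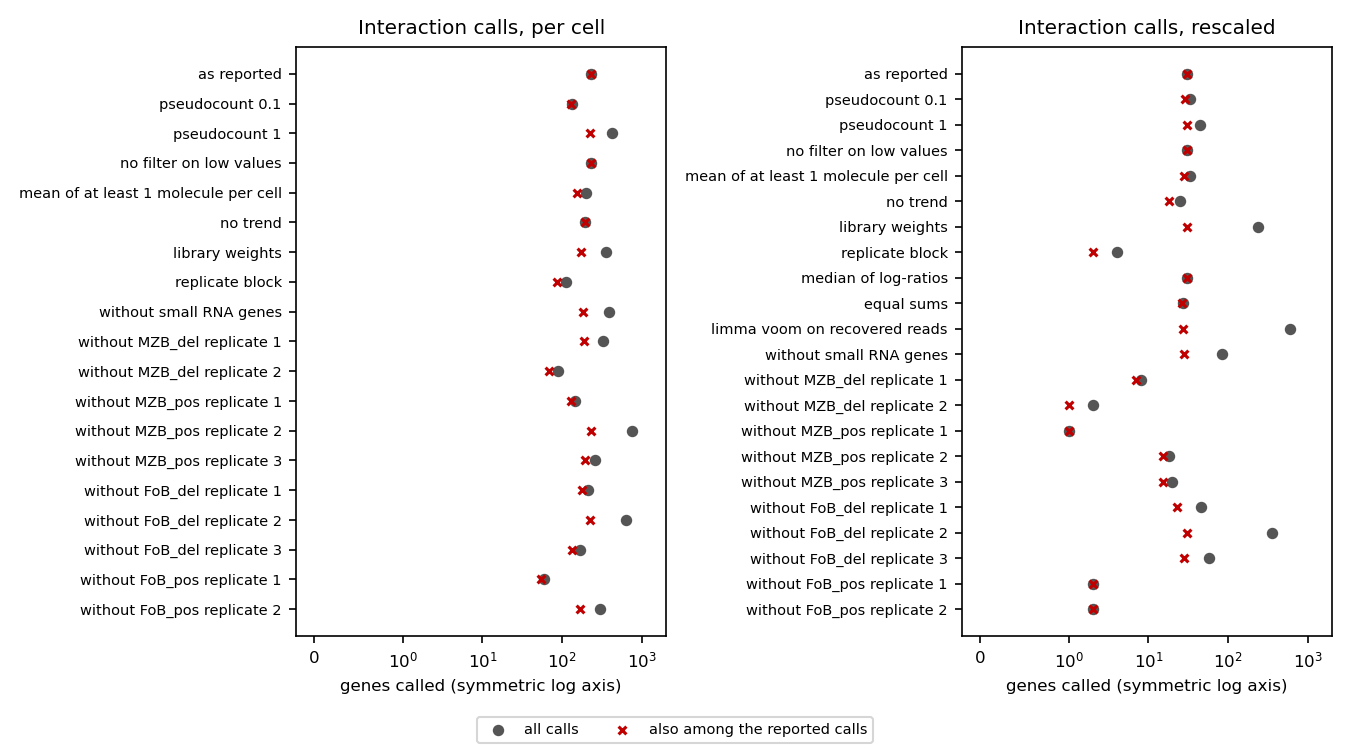
Number of genes with a called interaction under each setting, per cell and after rescaling, on a log axis; dots mark all calls, crosses those also among the reported calls, and del and pos stand for knockout and wild type. Rescaled calls run from 1 without MZB wild-type library 1 to 603 with voom.

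Effects shared by both cell types form the other side of the comparison, and the MZB and FoB effects use separate libraries. After rescaling, 510 genes (5.26%) were called in MZB and 57 (0.588%) in FoB, with 45 called in both, which is 8.82% of the MZB genes and 78.9% of the FoB genes. Of these 45, 42 had the same direction and 3 the opposite, and the interaction was called for 0 of the 42 by limma. Per cell, 46 genes were called in both (of 1355, or 14%, in MZB and 69, or 0.712%, in FoB), 42 in the same direction, and the interaction was called for 5 of these. Ly6c2, a Ly6 family surface antigen, and Flt3, a receptor tyrosine kinase of progenitors, are examples of shared change. The rescaled Ly6c2 effect was 2.52 ± 0.29 in MZB (limma, adjusted p = 0.0015) and 2.12 ± 0.29 in FoB (adjusted p = 0.00679), with an interaction of 0.40 ± 0.41 (adjusted p = 0.587). That interaction ran from -0.07 to 1.31 over 21 alternatives, so equal effects are not shown. Ly6c2 averaged 4.0 reads in wild-type MZB and 14.5 in wild-type FoB. Its mean rescaled level rose 13.9-fold in MZB and 5.62-fold in FoB. For Flt3 the effects were 1.49 ± 0.12 and 1.08 ± 0.12, and the interaction was 0.41 ± 0.17 (limma, adjusted p = 0.178). Both interactions were called per cell, at 1.10 and 1.03 (limma, adjusted p = 0.0241 and 0.0174). Across the 9690 genes the 2 rescaled effects had a Pearson r of 0.09, given as a description.

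Ahnak and Itgb7, the called genes with the highest rescaled interactions, belong to a list of genes that mark follicular B cells. Of its 17 genes, 7 were called higher per cell (Itgb7, Ahnak, Klf2, Vim, Fcer2a, Il4ra and Bach2) and 0 lower, and 3 were called higher after rescaling (Itgb7, Ahnak and Klf2), where 2.02% and 0.165% of all genes were higher. Their median interaction was 0.73 per cell and 0.36 after rescaling, beside 0.39 and 0.04 for all genes. After rescaling, 6 of the 17 rose in knockout MZB (3.36% of all genes did), 1 (Cd55) fell, and in FoB 1 (Ahnak) fell (0.134% of all genes) and 0 rose. With a library left out, 1 to 6 of the 17 were called higher after rescaling. The list was written with earlier results of these data known. Wild-type levels of both cell types enter the interaction, so a list guided by them would lean towards higher values in advance. Its counts are therefore no separate evidence about follicular genes. In bulk samples, more cells of a type and more RNA per cell cannot be told apart, here or in the lists below.

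Itgb7 (Entrez 16421, chromosome 15, 102215994-102233405) encodes integrin beta 7, the chain that pairs with alpha 4 or alpha E and serves homing to the gut. Its rescaled level was 3.35, 3.92 and 3.45 in wild-type MZB and 9.73 and 11.3 in knockout MZB. In FoB it was 21.2 and 22.5 in wild type and 24.9, 26.2 and 23.2 in the knockout. Knockout libraries lay above wild type in both cell types on this scale, by 2.94-fold in MZB and 1.13-fold in FoB, and knockout MZB lay below every FoB library. Per cell, knockout MZB was at 15.01 and 19.9, within the FoB range of 14.3 to 20.01, and FoB knockout and wild type overlapped. The effect was 1.48 ± 0.09 (limma, adjusted p = 4.09e-05) in MZB and 0.18 ± 0.09 (adjusted p = 0.378) in FoB. The interaction of 1.30 ± 0.13 (limma, adjusted p = 0.00554) was called under all 21 alternatives, and the per-cell value of 1.69 ± 0.28 (adjusted p = 8.16e-05) under all 18.

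Ahnak (Entrez 66395, chromosome 19, 8989284-9076935) encodes a very large scaffold protein beneath the plasma membrane. It was at 0.639, 0.714 and 0.66 in wild-type MZB and at 1.69 and 1.57 in the knockout on the rescaled scale. FoB libraries were at 5.45 and 8.82 in wild type and at 3.91, 3.70 and 3.93 in the knockout. The knockout level was above wild type in MZB and below it in FoB, with no overlap in either. The effects were 0.99 ± 0.15 (limma, adjusted p = 0.005) and -0.80 ± 0.15 (adjusted p = 0.0463), and the interaction was 1.79 ± 0.21 (adjusted p = 0.0213). This call was lost with a replicate block and without MZB knockout library 1, MZB knockout library 2 or MZB wild-type library 1, while the value stayed between 1.37 and 2.13. Per cell the interaction was 2.17 ± 0.26 (limma, adjusted p = 4.77e-09) and was called under all 18 alternatives.

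Mapk11 and Pold1 were the other 2 genes with opposite called effects after rescaling. Per cell, opposite effects were called for Ahnak, Mir7651, Mir6957 and Zfp758, and the rescaled interactions of the last 3 did not pass (limma, adjusted p = 0.223, 0.206 and 0.0727). Mapk11 (Entrez 19094, chromosome 15, 89142482-89149606), which encodes the stress kinase p38 beta, was at 2.17, 2.21 and 1.87 in wild-type MZB and 2.78 and 3.17 in the knockout. FoB libraries were at 16.1 and 16.1 in wild type and 11.7, 11.6 and 10.6 in the knockout. Its effects were 0.46 ± 0.09 and -0.50 ± 0.09 (limma, adjusted p = 0.0141 and 0.0283), with an interaction of 0.96 ± 0.12 (adjusted p = 0.0219). Pold1, the catalytic subunit of DNA polymerase delta, was at 4.33, 4.57 and 4.88 in wild-type MZB and 5.74 and 6.00 in the knockout. In FoB it was at 11.9 and 12.3 in wild type and 9.62, 9.05 and 9.33 in the knockout. Its interaction was 0.70 ± 0.10 (limma, adjusted p = 0.0219). On the per-cell scale the FoB effects of Mapk11 (-0.55 ± 0.19, limma, adjusted p = 0.369) and Pold1 (-0.41 ± 0.19, adjusted p = 1) did not pass, so for these genes opposite calls rest on rescaling.

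**Figure D3:**
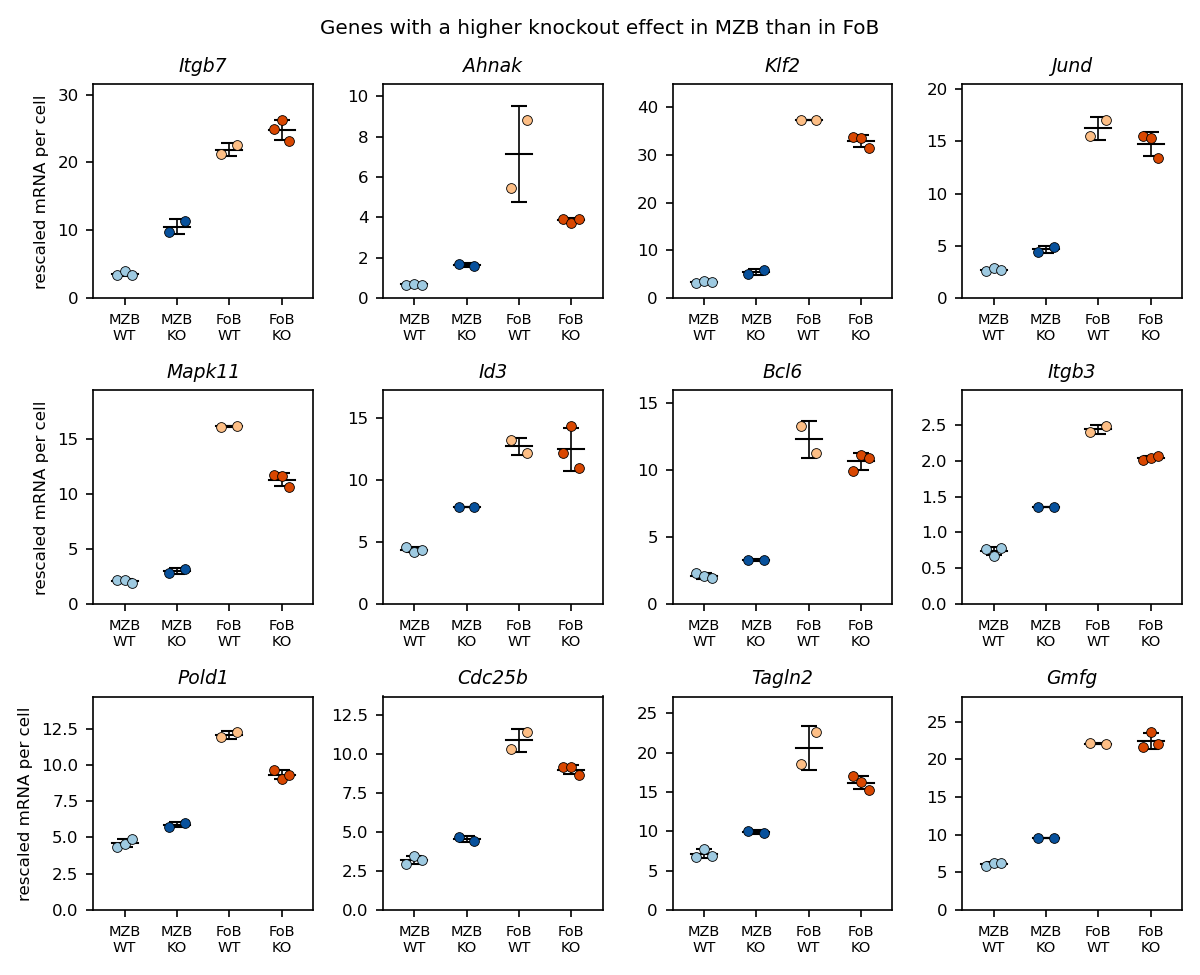
Rescaled mRNA per cell in each library (points) of genes with a higher interaction, by cell type and genotype; horizontal lines are group means and bars the SD. Itgb7 goes from 3.35 to 3.92 in wild-type MZB to 9.73 and 11.3 in knockout MZB, and stays between 21.2 and 26.2 in FoB.

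Of 26 B cell transcription factors, 4 were called higher per cell (Klf2, Bcl6, Id3 and Bach2) and 3 after rescaling (Klf2, Bcl6 and Id3), where 2.02% and 0.165% of all genes were. By limma 0 were lower; after rescaling 2 were lower at an unadjusted p under 0.05, and voom called 5 higher and 1 lower. The median of the 26 was 0.43 per cell and 0.06 after rescaling, close to that of all genes. With a library left out, 0 to 4 were called higher per cell and 0 to 3 after rescaling. Klf2 (Entrez 16598, chromosome 8, 72319062-72321654), the homing and quiescence factor, was at 3.08, 3.59 and 3.33 in wild-type MZB and 4.94 and 5.90 in the knockout. Wild-type FoB were at 37.3 and 37.2 and knockout FoB at 33.7, 33.5 and 31.4. The MZB effect was 0.65 ± 0.08 (limma, adjusted p = 0.00247), the FoB effect -0.18 ± 0.08 (adjusted p = 0.354) and the interaction 0.83 ± 0.12 (adjusted p = 0.0219). The knockout MZB libraries lay far below the FoB libraries.

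Id3 (Entrez 15903, chromosome 4, 136143822-136145392) encodes an inhibitor of E proteins. It was at 4.60, 4.20 and 4.35 in wild-type MZB and 7.84 and 7.80 in the knockout, and at 13.2 and 12.2 against 12.2, 14.4 and 10.97 in FoB, where the groups overlapped. Its interaction was 0.83 ± 0.14 (limma, adjusted p = 0.0458) and was called under 11 of 21 alternatives. Id3 lies 0.43 Mb from Kdm1a. Bcl6, a repressor best known from germinal centre B cells, was at 2.30, 2.07 and 1.92 in wild-type MZB and 3.32 and 3.26 in the knockout. Its FoB levels were 13.3 and 11.3 in wild type and 9.95, 11.1 and 10.9 in the knockout. Its interaction was 0.78 ± 0.13 (limma, adjusted p = 0.0457; called under 10 of 21 alternatives). Jund, an AP-1 subunit, was at 2.60, 2.87 and 2.70 in wild-type MZB and 4.41 and 4.91 in the knockout, and at 15.5 and 17.0 against 15.5, 15.3 and 13.4 in FoB. Its interaction was 0.85 ± 0.12 (limma, adjusted p = 0.0219).

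The 250 bases before the first-listed start of Ahnak, Mapk11, Klf2 and Id3 are shown as examples, for 2 genes with opposite effects and 2 transcriptional regulators whose windows lie outside the gene body, chosen after their values were seen. KLF2 binds CACCC boxes, and all of these 4 windows hold one, while 4 of the 13 windows of higher genes do not. The sequences are from RefSeq (GRCm38.p6), 5′ to 3′ on the gene's strand, and capitals mark CACCC or its reverse complement GGGTG, where matches may overlap. They span chr19:8989034-8989283 (plus strand), chr15:89149607-89149856 (minus), chr8:72318812-72319061 (plus) and chr4:136143572-136143821 (plus).
Ahnak: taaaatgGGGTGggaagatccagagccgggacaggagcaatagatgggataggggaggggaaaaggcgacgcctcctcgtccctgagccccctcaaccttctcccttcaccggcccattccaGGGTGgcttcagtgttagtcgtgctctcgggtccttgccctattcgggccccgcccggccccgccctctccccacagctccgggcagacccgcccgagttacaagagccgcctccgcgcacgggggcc
Mapk11: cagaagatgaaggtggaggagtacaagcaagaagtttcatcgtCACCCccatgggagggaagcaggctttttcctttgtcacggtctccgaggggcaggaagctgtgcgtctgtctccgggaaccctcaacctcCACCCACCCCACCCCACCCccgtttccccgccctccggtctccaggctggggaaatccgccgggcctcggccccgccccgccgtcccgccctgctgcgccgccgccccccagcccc
Klf2: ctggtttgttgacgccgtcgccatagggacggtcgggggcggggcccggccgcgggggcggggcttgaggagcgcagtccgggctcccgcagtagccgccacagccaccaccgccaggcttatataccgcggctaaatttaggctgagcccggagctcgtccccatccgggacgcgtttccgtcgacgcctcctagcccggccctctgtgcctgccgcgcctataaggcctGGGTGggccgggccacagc
Id3: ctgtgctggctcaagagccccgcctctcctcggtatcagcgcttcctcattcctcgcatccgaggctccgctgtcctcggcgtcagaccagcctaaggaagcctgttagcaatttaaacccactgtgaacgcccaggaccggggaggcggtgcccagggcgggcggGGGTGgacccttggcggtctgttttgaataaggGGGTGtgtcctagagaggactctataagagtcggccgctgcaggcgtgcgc

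These windows hold 2, 5, 1 and 2 matches. A promoter was found for 7753 of the 9690 genes, for 13 of the 16 higher and for 8 of the 14 lower genes. CACCC, searched on both strands, occurred in 9 of the 13 higher promoters (69.2%), in 3 of the 8 lower promoters (37.5%) and in 55.4% of all. GGGCGG occurred in 10 (76.9%), 4 (50%) and 60.5%, and CACGTG in 1, 0 and 8.95%. AAATCA, the core bound by GFI1, occurred in 1 higher promoter, 0 lower promoters and 7.49% of all. TGANTCA, the AP-1 site, occurred in 0, 0 and 3.87%, and the interferon-stimulated response element in 0, 1 and 2.82%. These are letter matches in 1 window per gene, with no test.

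The remaining higher genes had rescaled interactions from 0.50 to 0.90. Polm, a DNA polymerase of end joining, was at 5.16, 4.66 and 5.62 in wild-type MZB and 7.71 and 7.57 in the knockout, and 6.53 and 6.75 against 5.78, 5.91 and 5.32 in FoB. Its interaction was 0.77 ± 0.12 (limma, adjusted p = 0.0276). Itgb3, the integrin chain also found on platelets, was at 0.769, 0.673 and 0.779 in wild-type MZB, 1.36 and 1.36 in the knockout, 2.39 and 2.48 in wild-type FoB and 2.02, 2.03 and 2.06 in the knockout, with an interaction of 0.90 ± 0.12 (limma, adjusted p = 0.0219). Interactions of Tagln2 (0.79), an actin-binding protein, Cdc25b (0.73), a cell cycle phosphatase, Gmfg (0.59), an actin regulator of blood cells, Il27ra (0.53), a cytokine receptor chain, and Arhgap25 (0.50), a Rac GTPase activator, had adjusted p between 0.0268 and 0.0487 (limma). An unnamed gene (Entrez 319493) had 0.72.

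The lower group held an innate immune receptor, a membrane protein and, of its 14 genes, 2 with Zfp symbols. Tlr3 (Entrez 142980, chromosome 8, 45395665-45411075), the endosomal receptor for double-stranded RNA, was at 4.23, 3.95 and 4.41 in wild-type MZB and at 2.54 and 2.40 in the knockout after rescaling. In FoB it was at 0.287 and 0.282 in wild type and 0.490, 0.512 and 0.773 in the knockout. Neither pair of groups overlapped, and they moved apart in opposite directions: 58.9% of wild type in MZB and 208.1% in FoB, the latter from a mean of 32 reads. The MZB effect was -0.70 ± 0.13 (limma, adjusted p = 0.0131), and the FoB effect of 0.60 ± 0.13 did not pass (adjusted p = 0.0804). The interaction was -1.29 ± 0.18 (limma, adjusted p = 0.0219), and -0.88 ± 0.26 per cell (adjusted p = 0.0476, called under 8 of 18 alternatives).

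Marcks (Entrez 17118, chromosome 10, 37133243-37138926), a membrane-bound substrate of protein kinase C, was at 20.8, 20.9 and 18.7 in wild-type MZB and 12.6 and 10.8 in the knockout. Its FoB levels were 2.90 and 2.80 in wild type and 3.82, 3.62 and 4.91 in the knockout. Both pairs of groups were apart, again in opposite directions. The MZB effect was -0.77 ± 0.12 (limma, adjusted p = 0.00484), the FoB effect 0.48 ± 0.12 (adjusted p = 0.132) and the interaction -1.25 ± 0.17 (adjusted p = 0.0219). Per cell the interaction was -0.86 ± 0.27 and did not pass (limma, adjusted p = 0.0635).

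Tsga13, a testis-specific gene by name, was nearly restricted to MZB. It was at 15.03, 12.9 and 14.6 in wild-type MZB and 7.50 and 6.38 in the knockout, and in FoB it rested on means of 0.5 reads in wild type and 1 read in the knockout. The interaction of -1.09 ± 0.15 (limma, adjusted p = 0.0219) is thus the fall in MZB, and no FoB fold can be given. Zfp984 was at 5.25, 5.0 and 4.08 in wild-type MZB and 2.06 and 1.85 in the knockout, beside FoB levels of 1.68 and 2.03 in wild type and 1.77, 1.998 and 2.80 in the knockout. Per cell, knockout MZB was at 3.17 and 3.25, above all FoB libraries (1.199 to 1.75). Its interaction was -1.36 ± 0.23 (limma, adjusted p = 0.0458) and -1.03 ± 0.26 per cell (adjusted p = 0.0161).

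Vbp1 (-1.03), a prefoldin subunit, Klhl9 (-0.81), an adaptor of a ubiquitin ligase, Cyp39a1 (-0.74), an oxysterol hydroxylase, and Erlec1 (-0.61), a lectin of the endoplasmic reticulum, had a rescaled adjusted p of 0.0487 (limma). Per cell they were at -0.67, -0.44, -0.36 and -0.25 and were called under 0 of 18 alternatives. For the last 3, the MZB and FoB effects each missed the threshold while their difference passed. Zfp982 (-1.50), the predicted gene Gm13212 (-2.23), Grip2 (-1.21), whose FoB libraries averaged 0.5 and 0.3 reads, the unnamed gene with Entrez 106740 (-0.96) and the small RNAs Snora81 (-1.15) and AF357399 (-1.11) complete the 14. The small RNAs lie within Eif4a2 and Rps16 and averaged 10.5 to 90.0 reads, and their reads cannot be told apart from host gene reads.

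**Figure D4:**
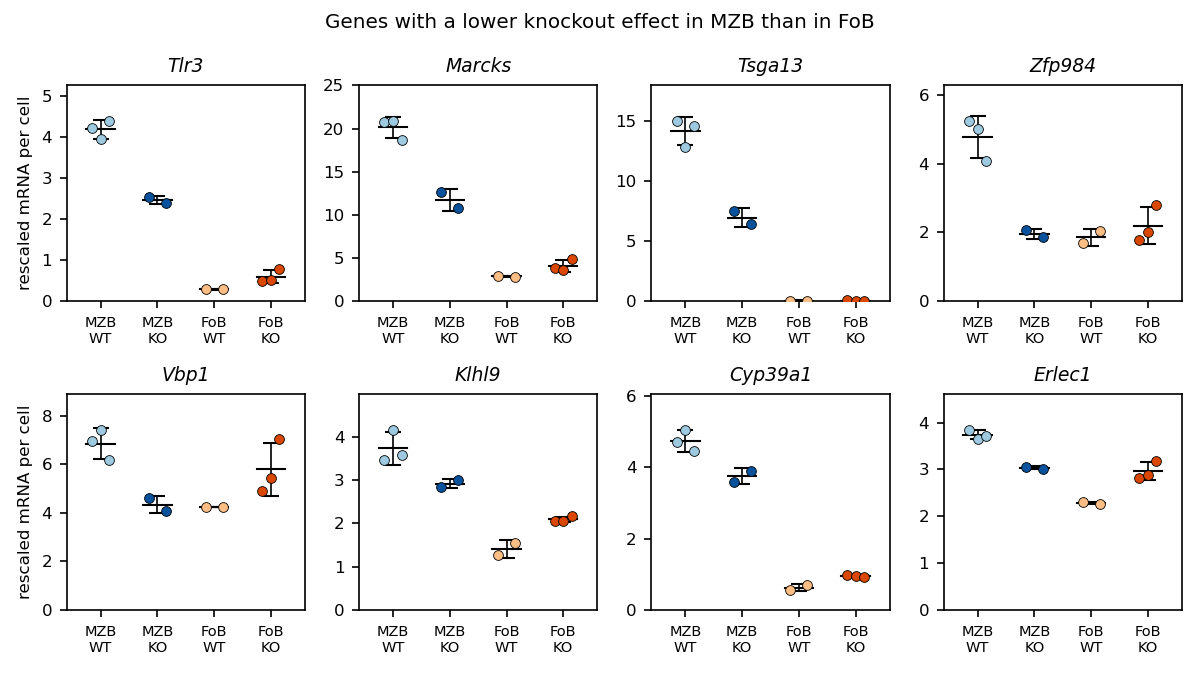
Rescaled mRNA per cell in each library (points) of genes with a lower interaction, by cell type and genotype; horizontal lines are group means and bars the SD. Tlr3 and Marcks fall in knockout MZB (2.40 to 2.54 and 10.8 to 12.6) from wild-type levels of 3.95 to 4.41 and 18.7 to 20.9.

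Of 27 marginal zone genes, 1 (Tlr3) had a called interaction, lower on both scales, where 0.32% of all genes were lower per cell and 0.144% after rescaling, and 0 were higher. The median was -0.17 after rescaling and 0.21 per cell, below that of all genes on both scales but of opposite sign. At an unadjusted p under 0.05, 9 were lower after rescaling (11.6% of all genes) and 0 higher (11.2%), and voom called 4 lower. With a library left out, 0 to 4 were called lower after rescaling. In MZB, 11 of the 27 fell after rescaling (1.9% of all genes fell) and 0 rose, and in FoB 2 fell (0.134% of all genes). Per cell, 3 of the 27 fell in MZB (0.702% of all genes) and 0 rose (13.3%). Their median per-cell effect in MZB was -0.01, beside 0.32 for all genes. Their summed mRNA per cell was 926, 1191 and 1177 in wild-type MZB and 1117 and 1221 in knockout MZB, where the groups overlapped. The 2 that fell in FoB were Rgs18, a regulator of G-protein signalling, and Fcamr, an IgM and IgA Fc receptor. Rgs18 fell by 1.66 in MZB and fell by 1.23 in FoB on the log2 scale, and its interaction of -0.43 did not pass (limma, adjusted p = 0.145). S1pr1, which draws B cells towards the marginal zone, fell by 0.47 in MZB (limma, adjusted p = 0.0043), was at -0.03 in FoB (adjusted p = 0.884), and its interaction of -0.44 did not pass (adjusted p = 0.0727). The marginal zone list was also written with earlier results known, and a list guided by wild-type levels would lean towards lower values in advance.

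Cell cycle and replication genes were called higher per cell in 7 of 33 (Mki67, Mcm5, Top2a, Gins2, Ccna2, Ccnb2 and Aurkb), where 2.02% of all genes were. Of the 33, 0 were lower, and their median was 0.72. The median of all genes was 0.39 per cell and 0.04 after rescaling. After rescaling 0 were called by limma, with a median of 0.43, while 19 had an unadjusted p under 0.05 in the higher direction (11.2% of all genes did) and voom called 4. With a library left out, 0 to 18 were called higher per cell. Mki67, a marker of dividing cells, was at 5.50, 9.52 and 7.71 mRNA per cell in wild-type MZB and 10.1 and 14.9 in the knockout, and at 0.403 and 0.450 against 0.191, 0.144 and 0.162 in FoB. Its interaction was 1.35 ± 0.27 per cell (limma, adjusted p = 0.00101) and 1.12 ± 0.22 after rescaling (adjusted p = 0.0613). Top2a had 1.10 and Mcm5, a helicase subunit, 0.96 per cell (limma, adjusted p = 0.0113 and 0.0358).

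Genes of immature and transitional B cells were called higher per cell in 3 of 7 (Cecr2, Cd93 and Myb, at 0.95, 1.06 and 0.95), where 2.02% of all genes were, with a median of 0.95. With a library left out this count ran from 0 to 5. They were called in 0 of 7 after rescaling by limma, where 4 were higher at an unadjusted p under 0.05, voom called 2 and the median was 0.57. CD93 was a negative marker of both sorts. Genes of B-1 cells were called higher per cell in 3 of 9 (Cd5, S100a6 and Zbtb32, at 1.31, 1.27 and 0.91), and in 1 to 5 with a library left out. After rescaling limma called 0 of 9, while 3 were higher and 1 lower at an unadjusted p under 0.05 and voom called 1 higher. The medians of the B-1 cell genes were 0.74 per cell and 0.38 after rescaling, beside 0.39 and 0.04 for all genes. Cd5, a B-1 cell coreceptor, was at 0.188, 0.505 and 0.416 mRNA per cell in wild-type MZB and 1.29 and 1.37 in the knockout, and between 0.0525 and 0.125 in all FoB libraries.

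Of 38 interferon-stimulated genes, 0 had an interaction called on either scale by limma, with a median of 0.41 per cell and 0.04 after rescaling, beside 0.39 and 0.04 for all genes. At an unadjusted p under 0.05, 10 were higher and 1 lower per cell, where 26.4% and 1.1% of all genes were. After rescaling 0 were higher and 2 lower, where 11.2% and 11.6% of all genes were, and voom called 1 lower. After rescaling, 8 rose in MZB (3.36% of all genes did) and 4 in FoB (0.454% of all genes). Median effects were 0.30 and 0.35, beside 0.02 and -0.01 for all genes. Oasl2 rose by 0.93 in MZB and 0.76 in FoB, and Usp18, which restrains interferon receptor signalling, by 0.50 and 0.56. Isg15 rose in FoB (1.28, limma, adjusted p = 0.00314) and was at 0.14 in MZB (adjusted p = 0.626), with an interaction of -1.14 (adjusted p = 0.0613).

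In the lists of this paragraph, counts stand beside 2.34% of all genes called per cell and 0.31% after rescaling. Immediate early and stress genes had 1 call of 16, Jund, on each scale. Adhesion and migration genes had Itgb7 and Itgam per cell and Itgb7 after rescaling, of 30. Of 2 germinal centre genes tested, Bcl6 was called on both scales. Among 19 LSD1 partners and complex members, 1 was called per cell, Gfi1 (0.90 ± 0.26, limma, adjusted p = 0.0444), which was at 0.206, 0.263 and 0.327 mRNA per cell in wild-type MZB, 0.860 and 0.856 in the knockout, 0.186 and 0.201 in wild-type FoB and 0.263, 0.269 and 0.197 in the knockout. After rescaling Gfi1 had 0.53 (adjusted p = 0.139) and voom called 2 members of the list higher and 1 lower. Oxidative phosphorylation genes had 1 call of 40 per cell, Ndufa2, at 1.03 ± 0.29 (limma, adjusted p = 0.0316), a share near the 2.34% of all genes. After rescaling 0 were called, with 8 of 40 higher at an unadjusted p under 0.05 and 0 called by voom.

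By limma, 0 interactions were called on either scale in lists of glycolysis (17 genes tested), cytosolic ribosomal proteins (40), the Notch pathway (25), canonical NF-kB (22), non-canonical NF-kB (12), B cell receptor signalling (32), antigen presentation (23), apoptosis (20), cholesterol synthesis (18), the unfolded protein response (21), the Myc network (16) and plasma cell genes (12). At an unadjusted p under 0.05 after rescaling, 11.2% of all genes were higher and 11.6% lower. Voom called 195 of the 9690 genes higher and 408 lower. Beside these, B cell receptor signalling had 8 higher and 4 lower at the unadjusted level, and voom called 1 and 1. Canonical NF-kB had 3 higher and 4 lower, with 0 and 3 by voom, and the unfolded protein response 0 higher and 5 lower, with 0 and 1. Non-canonical NF-kB had 3 and 2, with 0 and 2 by voom. Ribosomal proteins had 0 and 0. Rescaled medians of these lists lay between -0.11 for the unfolded protein response and 0.19 for B cell receptor signalling.

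**Figure D5:**
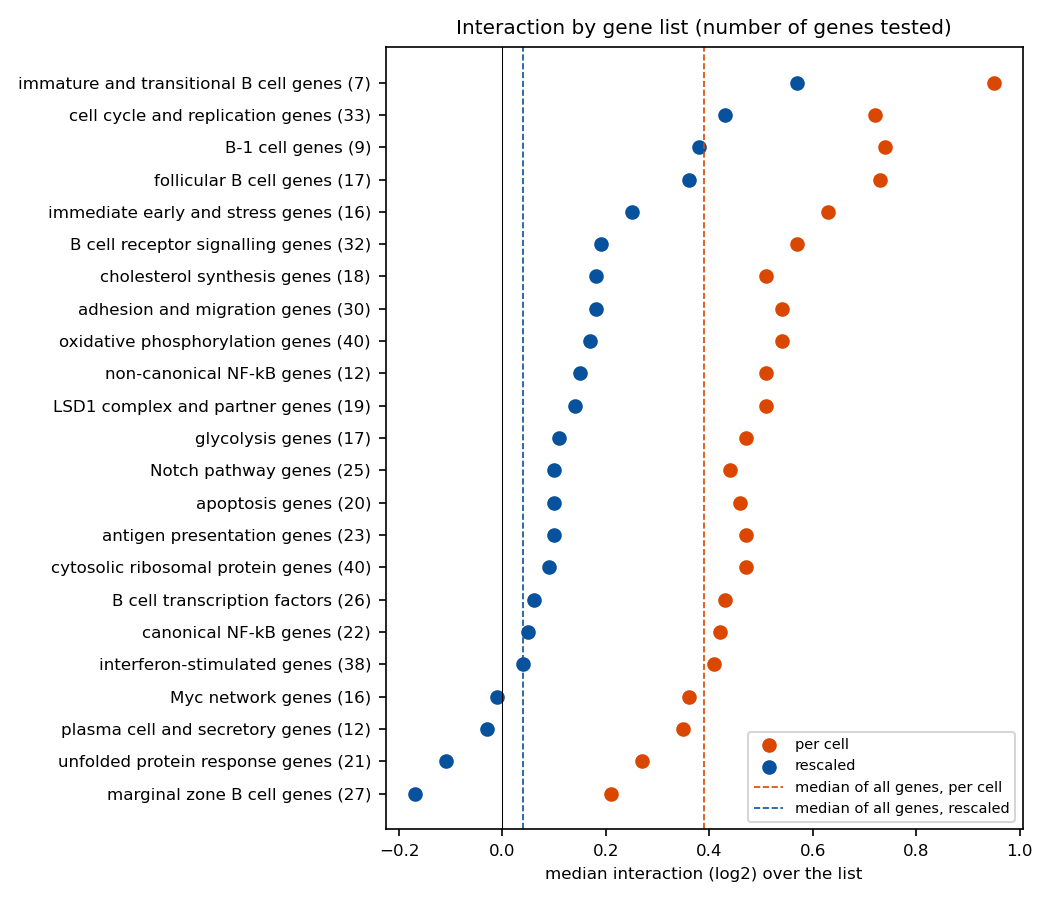
Median interaction (log2) of each gene list per cell and after rescaling, beside the median of all genes. Follicular B cell genes lie at 0.73 and 0.36 and marginal zone B cell genes at 0.21 and -0.17, against 0.39 and 0.04 for all genes.

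Markers of other cell types were scarce in the table: 4 of 14 macrophage and monocyte markers, 3 of 10 dendritic cell, 1 of 12 T cell, 2 of 9 NK cell, 1 of 7 platelet and 1 of 8 endothelial markers were listed, and 0 of 9 neutrophil and 0 of 8 erythroid markers. The summed rescaled level of the macrophage markers was 2.47 to 4.53 in wild-type MZB, 5.66 to 6.85 in knockout MZB, 2.46 to 2.80 in wild-type FoB and 5.07 to 6.82 in knockout FoB. That of the dendritic cell markers was 11.8 to 12.3, 16.4 to 20.6, 19.3 to 20.6 and 21.0 to 26.4 in the same order. After rescaling, both summed levels were higher in knockout than in wild type without overlap, in MZB and in FoB. Of all genes, 45.6% in MZB and 31.2% in FoB show no overlap. Ly6c2 made up much of the macrophage rise, and no sum without it was formed. Its rescaled mean was 0.173 in wild-type and 2.41 in knockout MZB, and 0.683 and 3.84 in FoB. Per cell, the dendritic cell sums overlapped in FoB, at 13.10 and 15.4 in wild type and 13.11 to 20.1 in the knockout. Itgam, Ly6c2 and Flt3 belong to these lists. Itgam (CD11b, a negative marker of both sorts) had an interaction of 1.01 ± 0.26 per cell (limma, adjusted p = 0.02) and 0.48 ± 0.18 after rescaling (adjusted p = 0.149). The only listed T cell marker, Lck, was at 2.71 to 3.37 in wild-type and 4.60 to 4.79 in knockout MZB after rescaling, and at 4.15 to 4.34 and 4.33 to 5.41 in FoB. The only listed endothelial marker, Pecam1, was at 15.9 to 17.7 in wild-type MZB and at 21.2 or more in both knockout MZB libraries, and at 22.4 to 25.9 in wild-type and 23.6 to 27.5 in knockout FoB. Both rose in knockout MZB (limma, adjusted p = 0.0188 and 0.0403), and their interactions of 0.36 and 0.26 did not pass (adjusted p = 0.195 and 0.228). NK cell markers summed to 0.90 to 1.60 in MZB and 0.33 to 0.77 in FoB. Of the platelet markers Itgb3 alone was listed. The part of such cells in any interaction above was not tested.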

How the data were processed

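Poly(A)-selected RNA of 50000 sorted cells per sample was sequenced with a KAPA stranded kit, per the labels' protocols. The authors deposited a signal value for every gene in every library, named mRNA per cell. STAR and mm10 are named, without versions, per the submitters' processing notes, and neither the labels nor the table say how reads became molecules. Within a gene the values are whole multiples of what 1 read is worth, which gave whole reads for 100% of genes (tolerance 0.01 reads). These reads served for depth and for voom only. Of 9690 Entrez identifiers, 9681 matched GRCm38.p6 symbols, and 0 columns stayed unassigned.

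Values were tested as log2(value + 0.3), so folds of low genes are understated, with limma 3.58.1 in R 4.3.3 (lmFit, contrasts, eBayes with trend, 1 coefficient per group, all 10 libraries, two-sided). The Benjamini-Hochberg adjustment ran over all 9690 genes, and genes with an adjusted p under 0.05 are named as called. Genes needed 0.3 in at least 2 libraries, which left all genes in. For rescaled values, a trimmed mean of log-ratios (trim 0.3) set each library's factor. The fit was tested on simulated data for the interaction over 9690 genes, with changes added to genes above a minimum of mean reads. Per cell it recovered 47% of 2-fold and 95% of 4-fold changes and called 51 genes to which no change was added. After rescaling it recovered 62% and 95% and called 3 such genes. Simulated libraries kept the observed rescaling factors, so per cell those 51 genes carried the difference in total mRNA between libraries. Tables were made in Python 3.11.15.

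Named genes are Kdm1a, up to 12 per direction with the largest rescaled interaction among called genes (same sign per cell, at least 3 molecules per cell in the highest group, no small RNA or predicted genes), up to 3 called members per list, and genes with opposite called effects after rescaling. The other genes called after rescaling, and those with opposite effects per cell, were named after their values were seen. The members, lists and tests were chosen with earlier results of these data known. Lists are described by counts and medians, with no test of the list.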

Additional observations from a re-analysis of the deposited data

Results flagged for a closer look

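Each gene here passed the test of the difference in knockout effect between MZB and FoB on at least 1 scale (limma, adjusted p under 0.05), and no explanation is offered. After rescaling, the difference was 1.79 for Ahnak, 1.30 for Itgb7, 0.96 for Mapk11, 0.90 for Itgb3, 0.85 for Jund and 0.83 for both Klf2 and Id3. It was 0.79 for Tagln2, 0.78 for Bcl6, 0.77 for Polm, 0.73 for Cdc25b, 0.72 for Entrez 319493, 0.70 for Pold1, 0.59 for Gmfg, 0.53 for Il27ra and 0.50 for Arhgap25.

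In the lower direction it was -2.23 for Gm13212, -1.50 for Zfp982, -1.36 for Zfp984, -1.29 for Tlr3, -1.25 for Marcks, -1.21 for Grip2, -1.15 for Snora81 and -1.11 for AF357399. It was -1.09 for Tsga13, -1.03 for Vbp1, -0.96 for Entrez 106740, -0.81 for Klhl9, -0.74 for Cyp39a1 and -0.61 for Erlec1.

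Per cell but not after rescaling, it was 1.35 for Mki67, 1.31 for Cd5, 1.27 for S100a6, 1.10 for both Top2a and Ly6c2, 1.06 for Cd93, 1.03 for both Ndufa2 and Flt3 and 1.01 for Itgam. It was 0.96 for Mcm5, 0.95 for both Cecr2 and Myb, 0.91 for Zbtb32 and 0.90 for Gfi1. As stated above, adjusted p on the per-cell scale is too small where the difference in total mRNA is noise.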

How the results depend on the processing

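The number of calls depended on the setting more than the values of named genes did. Per cell, the 227 calls (196 higher) became 134 (108 higher) with a pseudocount of 0.1, 420 (378 higher) with a pseudocount of 1, 350 (313 higher) with library weights, and 389 (367 higher) without small RNA genes, an alternative chosen after seeing the data. Of those sets, 130, 225, 172 and 182 genes were shared with the 227. After rescaling, the 30 calls became 239 with library weights (88 higher, 151 lower), 603 with voom on recovered reads (195 higher, 408 lower) and 83 without small RNA genes (37 higher, 46 lower), sharing 30, 27 and 28 genes with the 30. With a pseudocount of 1, 24 were lower. The causes were not tested.

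With each library left out in turn, calls ran from 59 to 744 per cell (41 to 697 higher, 18 to 48 lower) and from 1 to 349 after rescaling (1 to 105 higher, 0 to 244 lower). The total mRNA interaction ran from 0.23 to 0.55. The Kdm1a interaction ran from 0.56 to 0.90 per cell and from 0.39 to 0.43 after rescaling. It passed without MZB wild-type library 2 per cell (0.81, limma, adjusted p = 0.0495), and after rescaling without FoB knockout library 2 (0.42, adjusted p = 0.0475), with library weights (0.42) and with voom (0.44).

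With the replicate number as a block, calls fell to 110 per cell (84 higher) and 4 after rescaling (2 higher, 2 lower), of which 85 and 2 were among the reported calls. Correlations between deviations of libraries of different groups ran from -0.19 to 0.205 for same-numbered libraries. For different-numbered libraries they ran from -0.205 to 0.149. In a group of 2 libraries the deviations mirror each other, so these values cannot decide whether the numbers mark pairs. The reported fits did not take them as pairs.

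Among the other values of named genes after rescaling, 674 kept their direction and side of the threshold, 224 lost the call, 14 gained it and 1 reversed. Per cell these counts were 633, 129, 19 and 0. Kept values include those of genes that were not called as reported and stayed uncalled. Only the 30 genes called after rescaling could lose a rescaled call. The reversed value was Ly6c2 after rescaling without FoB wild-type library 1, at -0.0653 (limma, adjusted p = 0.941). Depth limits genes with few reads, such as Tsga13 and Grip2 in FoB.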

Other observations

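Small RNA genes were called often per cell: 45 of 174 (25.9%), 32 higher and 13 lower, against 2.34% of all genes. After rescaling 2 of the 174 were called (1.15%), both lower.

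Of 264 zinc finger genes with Zfp symbols, 1 was called higher and 9 lower per cell, where 2.02% and 0.32% of all genes were, and 0 and 2 after rescaling. Their median was 0.17 per cell and -0.14 after rescaling, beside 0.39 and 0.04 for all genes. Of the 10 called on either scale, 5 lie on chromosome 17 (Zfp942, Zfp943, Zfp994, Zfp944 and Zfp758), 3 on chromosome 4, 1 on chromosome 13 and 1 on chromosome 8. Zfp943, for example, averaged 6.25 mRNA per cell in wild-type and 3.04 in knockout MZB, and 1.53 in wild-type and 2.45 in knockout FoB. Whether reads of these genes could be told apart from those of similar genes was not tested. These genes were singled out after their values were seen.

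Near Kdm1a, 229 genes lie within 15 Mb on chromosome 4. Of these, 16 had a called interaction per cell (6.99%, against 2.23% elsewhere) and 4 after rescaling (1.75%, against 0.275%): Id3, Zfp982, Zfp984 and Gm13212. Cort, a neuropeptide gene 12.55 Mb away, averaged 0.113 mRNA per cell in wild-type and 3.22 in knockout MZB, and 0.167 and 0.923 in FoB, with an interaction of 1.96 ± 0.34 per cell (limma, adjusted p = 0.000126) and 1.24 ± 0.80 after rescaling (adjusted p = 0.373). Dhrs3, a retinal reductase gene 8.33 Mb away, averaged 0.0966 and 2.55 in MZB and 0.0643 and 0.533 in FoB, with 1.79 ± 0.30 per cell (limma, adjusted p = 8.93e-05) and 1.005 ± 0.59 after rescaling (adjusted p = 0.331). This window was chosen with earlier results known.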
